A study of Mus musculus with 48 samples.

Results

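The natriuretic peptide system was described here by 7 genes of the deposited expression matrix, which holds 54752 genes. The genes were chosen by name, as the hormone genes Nppa, Nppb and Nppc, the receptor genes Npr1, Npr2 and Npr3, and Corin, which encodes a protease that processes the Nppa product. All 7 were found in the matrix, and all 7 reached 1 TPM in at least 3 libraries of every cell population. TPM, the deposited unit, is relative to the whole library and gives how much of a library a gene makes up once gene length is corrected for.

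The libraries came from 13 Prox1-eGFP knock-in mice, in which an IRES-eGFP cassette at the Prox1 locus labels lymphatic cells, on a C57BL/6 background (C57BL/6J for this line in the methods) and 8 to 16 months old by the labels. All of them, ctrl mice included, carried the reporter and a subcutaneous minipump for 5 to 6 weeks. The pump gave bovine serum albumin (ctrl), angiotensin II in albumin (angII) or angiotensin II with VEGFCc156s (angII+VEGFC), a mutant growth factor that acts on the lymphatic receptor VEGFR3. Heart lymphatic endothelial cells (heart LECs), heart blood endothelial cells (heart BECs) and diaphragm LECs were sorted as live CD31+, CD45.2- cells split by eGFP, and cardiomyocytes were the low-speed pellet of the digested whole heart, without a sort. Each of the 4 populations had 12 libraries, 4 ctrl, 5 angII and 3 angII+VEGFC. The endothelial libraries were sequenced in 2 sets (batch 1 and batch 2), and the cardiomyocyte libraries were a set of their own, so batch and cell type cannot be told apart for cardiomyocytes.

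Nppa and Nppb encode atrial and B-type natriuretic peptide, hormones that heart muscle releases when its wall is stretched and that lower blood volume and pressure. Nppc encodes C-type natriuretic peptide, which vessel walls use as a local signal. The receptor encoded by Npr1 answers the atrial and B-type peptides and that of Npr2 the C-type peptide, both by making cyclic GMP inside the cell. The receptor of Npr3 has no cyclase and takes all of these peptides out of circulation. Corin is a membrane protease that cuts the precursor of the atrial peptide, and Nppa and Nppb are textbook markers of a loaded heart.

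The hormones share a ring closed by a bond between 2 cysteines, and the stretches that code for it in Nppb and Nppc are shown because these hormones lay at opposite ends here, Nppb highest in heart muscle and Nppc in lymphatic cells. They were read from the mouse transcripts of GENCODE M21 (GRCm38), 51 bases or 17 codons each, with the cysteine codons in capitals.
Nppb: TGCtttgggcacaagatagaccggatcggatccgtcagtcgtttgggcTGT
Nppc: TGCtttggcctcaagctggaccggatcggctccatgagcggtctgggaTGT
Nppb and Nppc had the same base at 40 of the 51 positions (78.4%) and, translated, the same residue at 13 of the 17, although their levels in these cells were far apart.

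Nppb (ENSMUSG00000029019) lies at chr4:147985788-147987205 and Nppa (ENSMUSG00000041616) at chr4:148000722-148002079, both on the plus strand of GRCm38, with 13516 bp between them. The other members are spread over the genome: Nppc (ENSMUSG00000026241) at chr1:86666291-86670571 on the minus strand, Npr1 (ENSMUSG00000027931) at chr3:90450591-90465866 on the minus strand, Npr2 (ENSMUSG00000028469) at chr4:43631935-43651244 on the plus strand, Npr3 (ENSMUSG00000022206) at chr15:11839896-11907287 on the minus strand and Corin (ENSMUSG00000005220) at chr5:72300025-72504473 on the minus strand. Annotated genes on the opposite strand share exonic bases with 5 of the members, and the kind of quantification used is not stated to separate strands, so their reads cannot be told apart. The largest overlap was that of Gm13054, which covers 61.5% of the exonic bases of Nppa and was listed at 54.6 to 689 TPM in the cardiomyocytes. For Npr1 (Gm16048), Npr2 (Gm12473), Npr3 (Gm5144) and Corin (Gm20647) the overlap was 11.7%, 5.70%, 3.42% and 2.72% of the exonic bases.

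Stretches before the RefSeq starts of the neighbouring genes Nppa and Nppb are shown because these were the members that stood highest in cardiomyocytes. RefSeq promoter windows (GRCm38.p6) of 250 bases before the gene start were searched on both strands, and all 7 members matched a window. Capitals mark TGATAA or AGATAA (letters of a GATA element), TCACACC (T-box), AAGTG (Nkx2-5), GGAATG (M-CAT, bound by TEAD proteins) and TATAAA. No motif overlapped another in these windows.
Nppa, chr4:148000472-148000721, plus strand: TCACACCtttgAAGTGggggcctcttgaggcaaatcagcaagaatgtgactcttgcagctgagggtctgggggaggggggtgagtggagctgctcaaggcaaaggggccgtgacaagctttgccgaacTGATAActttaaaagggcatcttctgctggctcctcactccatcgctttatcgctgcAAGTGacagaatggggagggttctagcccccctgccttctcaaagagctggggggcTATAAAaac
Nppb, chr4:147985795-147985821, plus strand: GGAATGcagcTGATAAatcagAGATAA
TGATAA began 122 bases before the RefSeq start of Nppa and 95 before that of Nppb, and 7.94% of 32851 promoters hold it. The other letters were found in 9.99% (AGATAA), 3.33% (TCACACC), 40.7% (AAGTG), 12.6% (GGAATG) and 12.4% (TATAAA) of these promoters. For Nppb only the stretch from GGAATG to AGATAA is printed, and a TATAAA 31 bases before its RefSeq start is not shown. The GENCODE transcript of Nppb starts 112 bp before the RefSeq start. By GENCODE the printed stretch therefore lies inside the transcript, and only by RefSeq does it lie before the start. Apart from a TATAAA in the window of Nppc, the other 5 members held none of these letters, which says only that the letters are absent from 250 bases.

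The lymphatic marker genes matched the labels of the sorted cells. The summed TPM of 7 lymphatic markers was 18170 to 32106 in heart LECs and 22654 to 43488 in diaphragm LECs, and 216 to 708 in heart BECs. The cardiomyocyte libraries held other cells of the heart as well, with 1921 to 3217 TPM of blood endothelial markers and 2413 to 6502 TPM of fibroblast markers. Fibroblast markers were also listed in the sorted cells. They summed to 466 to 4048 TPM in heart BECs, 745 to 1779 in heart LECs and 145 to 1204 in diaphragm LECs. Mitochondrially encoded genes made up 15.9 to 31.02% of the TPM in cardiomyocytes and at most 8.76% elsewhere, which lowers the share left for every other gene there. Genes listed at 1 TPM or more numbered 12924 to 25896 per library.

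Nppa was the 9th and Nppb the 148th most abundant of 54752 genes in cardiomyocytes by mean TPM. Nppa was listed at 7071 to 66146 TPM there (median 20310, mean 25668 ± 15737 SD, n = 12). In the endothelial populations it was at 0 to 893 TPM in diaphragm LECs (median 12.2), 4.12 to 171 in heart LECs (median 24.7) and 1.33 to 99.6 in heart BECs (median 13.3). Every cardiomyocyte library lay above every endothelial library. The differences in log2(TPM + 1) were 10.27 (SE 0.70) against heart BECs, 9.72 against heart LECs and 10.38 against diaphragm LECs, with limma adjusted p-values of 1.35e-16, 8.36e-16 and 8.18e-17. The endothelial populations did not pass the test against each other: heart BECs minus heart LECs gave -0.55 (95% interval -1.97 to 0.86), heart BECs minus diaphragm LECs 0.11 (-1.31 to 1.52) and heart LECs minus diaphragm LECs 0.66 (-0.76 to 2.07). In bulk libraries like these, fewer cells of a type and less RNA per cell cannot be told apart.

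Nppb followed the same order at a lower level. It was at 144 to 1679 TPM in cardiomyocytes (median 389, mean 652 ± 523 SD, n = 12), at 0 to 22.6 in diaphragm LECs, at 0 to 13.3 in heart LECs and at 0.323 to 6.71 in heart BECs. Again no endothelial library reached the lowest cardiomyocyte library. The log2 differences were 7.05 (SE 0.42, adjusted p = 2.36e-18) against heart BECs, 7.25 (adjusted p = 8.64e-19) against heart LECs and 7.74 (adjusted p = 6.76e-20) against diaphragm LECs. Between the endothelial populations the intervals of the Nppb difference reached from -0.66 to 1.04, from -0.16 to 1.54 and from -0.36 to 1.35, and none of the 3 pairs passed.

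Nppc ran the other way and was highest in the lymphatic cells. In diaphragm LECs it was at 13.7 to 63.5 TPM (median 37.6, mean 37.8 ± 11.9 SD, n = 12) and in heart LECs at 6.47 to 42.7 TPM (median 23.3). In heart BECs it was at 0.923 to 11.1 TPM (median 3.74) and in cardiomyocytes at 0.389 to 3.35 (median 2.13). The lymphatic range of the diaphragm lay above every heart BEC and cardiomyocyte library, while the heart LEC range overlapped that of the heart BECs. Heart BECs were lower than heart LECs by 2.38 log2 units (difference -2.38, adjusted p = 3.93e-11) and lower than diaphragm LECs (-3.09, adjusted p = 9.57e-15). Cardiomyocytes were lower than heart BECs by 0.68 (difference -0.68, SE 0.24, adjusted p = 0.0146). The neighbours at the top of the order, heart LECs and diaphragm LECs, did not pass (difference -0.71, 95% interval -1.19 to -0.23, adjusted p = 0.0558). The same 2 populations passed when the mouse was added as a block, with Nppc at -0.77 (adjusted p = 0.0318) for a fixed block and -0.71 (adjusted p = 0.0436) for a random one. Nppc also passed without the libraries of mouse 1 (-0.83, adjusted p = 0.0308) or mouse 4 (-0.80, adjusted p = 0.0194).

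**Figure D1:**
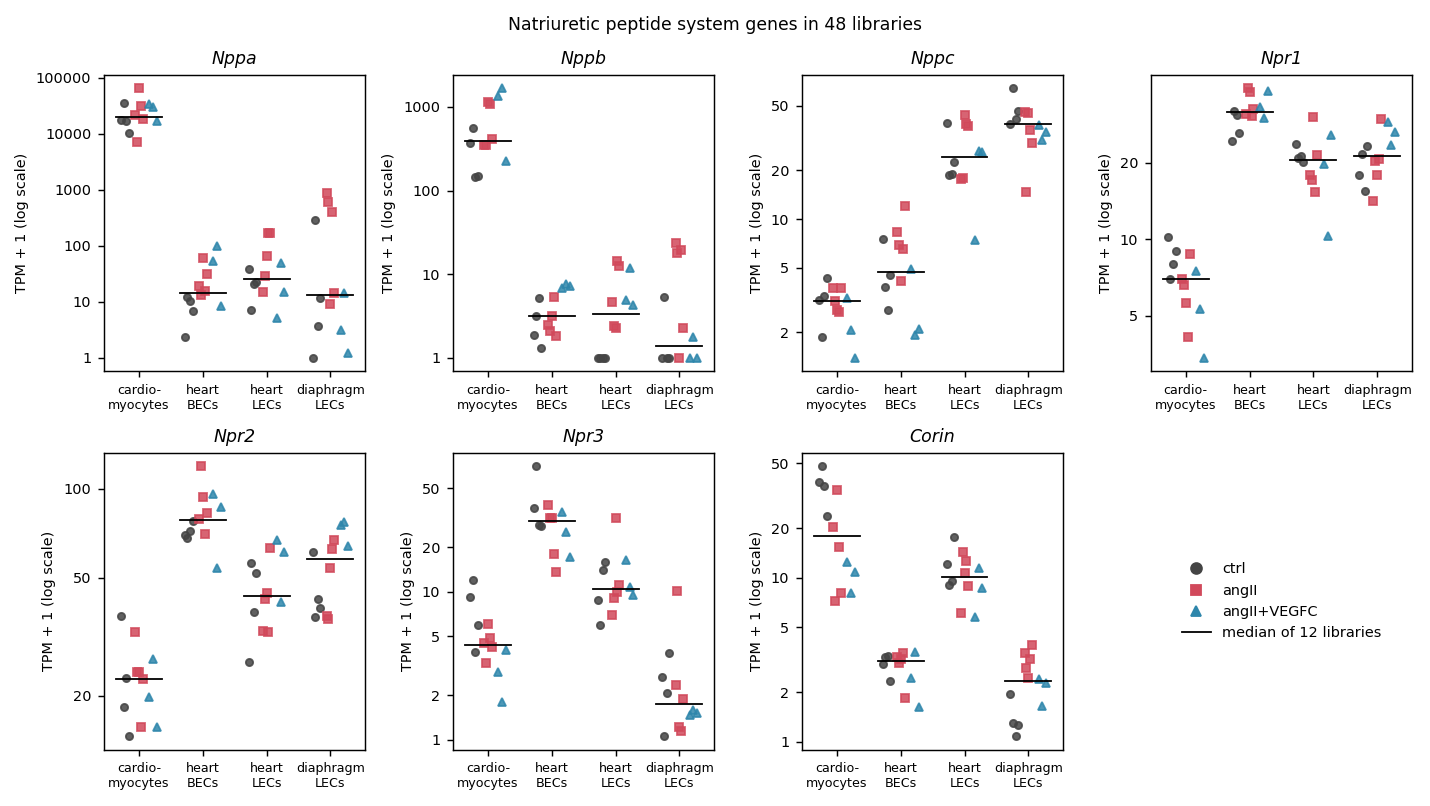
Expression of the 7 genes in TPM + 1 on a log axis, in the 12 libraries of each population, with points marked by treatment and a black line at the median of the population. Nppa and Nppb stand apart in cardiomyocytes, where their medians were 20310 and 389 TPM, Nppc is highest in the lymphatic cells and the receptors Npr1 and Npr2 are highest in heart BECs.

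Corin had a different distribution from the hormone it processes. It was at 6.27 to 46.9 TPM in cardiomyocytes (median 16.9, mean 20.9 ± 14.0 SD, n = 12) and at 4.80 to 16.8 TPM in heart LECs (median 9.10, mean 9.60 ± 3.40). Heart BECs and diaphragm LECs held little of it, with 0.632 to 2.53 TPM and 0.0809 to 2.89 TPM. The heart LEC libraries thus lay above all heart BEC and all diaphragm LEC libraries and overlapped the cardiomyocytes. The limma differences were 0.81 for cardiomyocytes minus heart LECs (adjusted p = 0.000980), -1.86 for heart BECs minus heart LECs (adjusted p = 1.14e-09) and 2.27 for heart LECs minus diaphragm LECs (adjusted p = 4.85e-11). Heart BECs and diaphragm LECs, next to each other in the order, differed by 0.41 (95% interval -0.01 to 0.84, adjusted p = 0.196). The cardiomyocyte marker sum was 155 to 1033 TPM in heart LECs and 131 to 280 TPM in heart BECs, and its part in the Corin level of heart LECs was not tested.

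The receptors were at their highest in heart BECs. Npr1, the receptor of the atrial and B-type peptides, was at 23.3 to 38.3 TPM in heart BECs (mean 31.1 ± 4.57 SD, n = 12), 13.2 to 28.7 in diaphragm LECs (20.6 ± 4.95), 9.28 to 29.2 in heart LECs (19.3 ± 5.06) and 2.42 to 9.22 in cardiomyocytes (5.87 ± 2.00). Every endothelial library lay above every cardiomyocyte library, by a small margin between the lowest heart LEC library at 9.28 TPM and the highest cardiomyocyte library at 9.22. Heart BECs were above heart LECs by 0.71 (adjusted p = 0.000180) and above diaphragm LECs by 0.55 (adjusted p = 0.00368), while the LECs of the 2 organs differed by -0.16 (95% interval -0.46 to 0.13). In ctrl libraries alone the Npr1 difference of heart BECs from heart LECs was 0.39 and did not pass (adjusted p = 0.211). Cardiomyocytes were 2.30 log2 units below heart BECs (difference -2.30, SE 0.15, adjusted p = 1.24e-17).

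Npr2, the receptor of the C-type peptide, was the most abundant of the 3 receptors in each population by median TPM. It was at 52.9 to 118 TPM in heart BECs (median 77.6), 35.3 to 76.0 in diaphragm LECs (median 56.7), 25.0 to 66.1 in heart LECs (median 42.4) and 13.6 to 36.2 in cardiomyocytes (median 21.8). The order was that of Npr1, and Npr2 was 2.51 to 4.02 times Npr1 by the median ratio of a library. Heart BECs passed against heart LECs (0.78, adjusted p = 0.000147) and diaphragm LECs (0.52, adjusted p = 0.0106), and the LECs did not differ beyond their spread (-0.25, 95% interval -0.57 to 0.06). The Npr2 difference of heart BECs from diaphragm LECs did not pass when the libraries of mouse 2 or of mouse 8 were left out (adjusted p = 0.0533 and 0.05998). That from heart LECs did not pass in ctrl libraries alone (adjusted p = 0.0625). Cardiomyocytes were lower than heart BECs (-1.85, adjusted p = 9.84e-14), heart LECs (-1.07, adjusted p = 1.28e-07) and diaphragm LECs (-1.33, adjusted p = 9.21e-10).

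Npr3, the clearance receptor, was higher in the LECs of the heart than in those of the diaphragm. It was at 12.6 to 69.3 TPM in heart BECs (median 28.9), 4.95 to 30.5 in heart LECs (median 9.43), 0.796 to 10.9 in cardiomyocytes (median 3.38) and 0.0586 to 9.14 in diaphragm LECs (median 0.741). A single diaphragm LEC library, angII mouse 4 at 9.14 TPM, reached into the heart LEC range, and the next highest was at 2.83. Blood endothelial markers summed to 1935 to 8005 TPM in heart LECs and 763 to 1796 in diaphragm LECs, against 12878 to 19208 in heart BECs. Their part in the Npr3 difference between the LECs was not tested. The log2 difference of heart LECs minus diaphragm LECs was 2.53 (adjusted p = 1.32e-08), and that of heart BECs minus heart LECs was 1.33 (adjusted p = 0.000419). Cardiomyocytes were below heart LECs (-1.34, adjusted p = 0.000112) and above diaphragm LECs (1.19, adjusted p = 0.000615), so each neighbouring pair in the Npr3 order passed the test. The ratio of Npr3 to Npr1 in TPM had a median of 0.880 in heart BECs, 0.567 in heart LECs, 0.608 in cardiomyocytes and 0.0287 in diaphragm LECs.

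**Figure D2:**
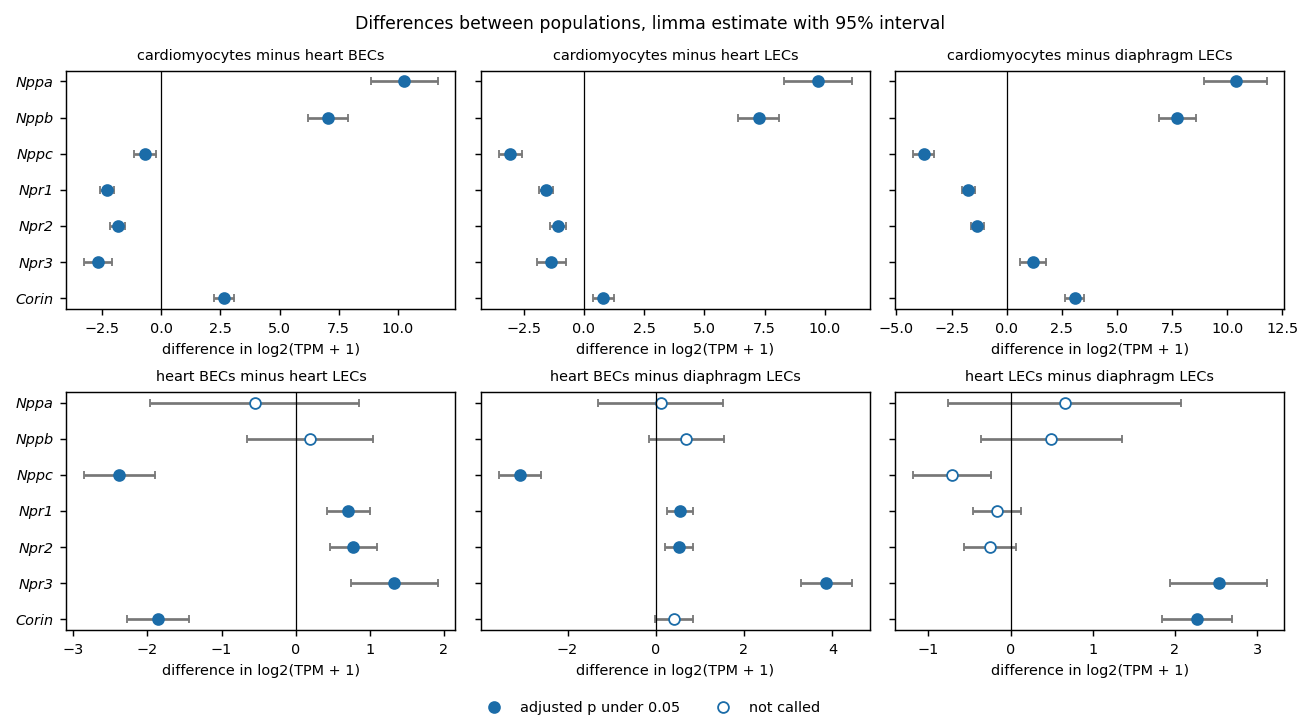
Difference between 2 populations in log2(TPM + 1) for each gene, from the limma fit of all 48 libraries, with its 95% interval; filled points have an adjusted p-value under 0.05 and open points do not. Cardiomyocytes differ from each endothelial population in all 7 genes, and the LECs of the 2 organs differ in Npr3 and Corin.

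Counted over the members, cardiomyocytes differed from heart BECs, heart LECs and diaphragm LECs in 7 of 7 genes each, where 48.5%, 66.4% and 52.4% of 29322 tested genes passed. Against heart BECs and heart LECs the 7 comprised 3 higher (Nppa, Nppb, Corin) and 4 lower, and against diaphragm LECs 4 higher, with Npr3 added, and 3 lower. Heart BECs differed from heart LECs in 5 of 7 genes (24% of all genes) and from diaphragm LECs in 4 of 7 (20.4%), and heart LECs from diaphragm LECs in 2 of 7 (7.44%). The median difference of the members was -0.68, -1.07 and 1.19 for cardiomyocytes against the 3 endothelial populations in this order, where all genes gave -0.45, -0.63 and -0.48. For the 3 endothelial pairs it was 0.19, 0.52 and 0.50, where all genes gave -0.16, -0.03 and 0.12. The median of all genes depended on the scaling in the cardiomyocyte comparisons, and with quantile normalization it was -0.10, -0.15 and -0.14. Of all genes called between cardiomyocytes and heart BECs, 2153 were higher and 12062 lower, and with quantile normalization 4181 and 5103. Against heart LECs the split moved from 2237 and 17222 to 4804 and 5978, and against diaphragm LECs from 2573 and 12789 to 4489 and 5510. With that scaling the cardiomyocyte difference did not pass for Nppc against heart BECs or for Npr2 and Npr3 against heart LECs, and no member changed direction.

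The genes with the pattern most like that of Nppa encode muscle proteins. Over all 48 libraries its 3 nearest genes by Pearson correlation of log2(TPM + 1), among 33292 genes, were Myh6, the atrial and fast cardiac myosin heavy chain (r = 0.959), Sln, the calcium pump inhibitor sarcolipin (0.957), and Myl7, the atrial myosin light chain (0.955). These are descriptions over libraries that share cell type, mouse and set, follow the gap between cardiomyocytes and endothelial cells, and carry no p-value. Within heart BECs, ctrl mouse 9 had the highest Myh6, 17.1 TPM, with 9.50 TPM of Nppa, and angII+VEGFC mouse 2 had 6.89 TPM of Myh6 with 52.5 of Nppa. The highest Nppa values there, 99.6 TPM in angII+VEGFC mouse 6 and 59.1 in angII mouse 14, came with 13.45 and 13.37 TPM of Myh6. Whether Nppa followed Myh6 within a population was not tested. The median ratio of Nppa to Myh6 was 13.5 in cardiomyocytes, 6.54 in diaphragm LECs, 1.95 in heart LECs and 1.69 in heart BECs. The ranges overlapped, at 5.13 to 20.6 in cardiomyocytes and 0 to 316 in diaphragm LECs. In heart LECs the ratio was 0.425 to 7.80 and in heart BECs 0.420 to 7.62.

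**Figure D3:**
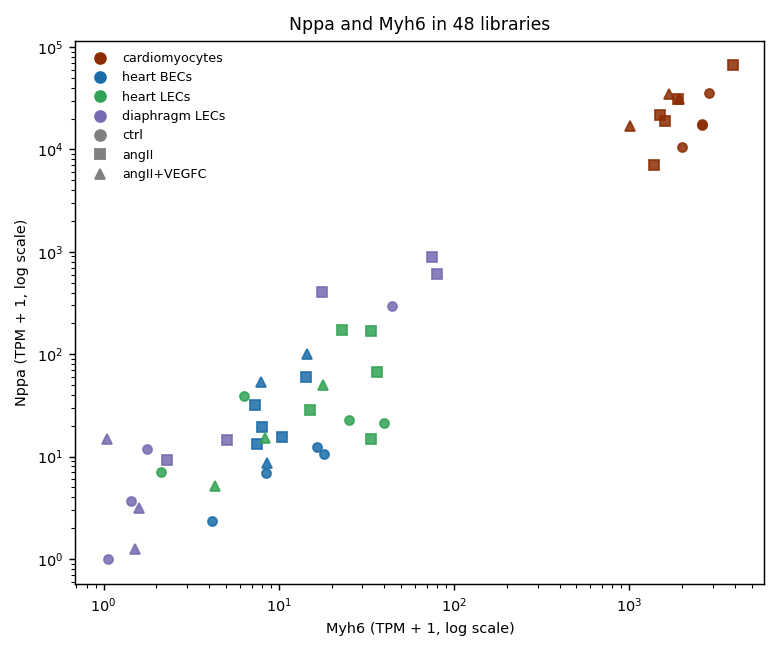
Nppa against Myh6 in the 48 libraries, both in TPM + 1 on log axes, with 1 point per library marked by population. The cardiomyocytes form a group at the top right, and 4 diaphragm LEC libraries with Myh6 at 16.6 to 78.5 TPM and Nppa at 295 to 893 TPM stand apart from the other 8.

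Most of the Nppa of the diaphragm LECs lay in 4 of the 12 libraries. Those with Myh6 above 10 TPM (angII mice 3, 4 and 15 and ctrl mouse 5) were listed at 893, 606, 406 and 295 TPM of Nppa, and the other 8 at 0 to 13.7. Myh6 was at 16.6 to 78.5 TPM in these 4 and at 0.0433 to 4.07 in the others, and Myl7 at 41.3 to 174 against 0 to 4.43. Nppb was at 4.33 to 22.6 TPM against 0 to 1.25.
The summed cardiomyocyte markers were at 171 to 475 TPM in these 4 libraries and at 8.56 to 45.0 in the other 8. Of the 7 markers, 5 were higher in all 4. Myh6, which set the split, is 1 of these 5 and part of the sum. Skeletal muscle markers overlapped, at 3.39 to 88.6 TPM in the 4 and 16.5 to 73.4 in the others. The atrial list was at 151 to 365 against 70.4 to 112 TPM and the ventricular list at 44.2 to 97.4 against 1.49 to 16.2. Lymphatic markers were at 22654 to 43222 TPM in the 4 and at 35323 to 43488 in the others. Corin, Nppc, Npr1, Npr2 and Npr3 overlapped between the 2 sets of libraries. Of the 4 mice, 3 had a cardiomyocyte library as well, and the ratios of Nppa to other heart genes in both libraries were near each other for some genes and apart for others. Nppa over Myl7 was 5.32 in the cardiomyocytes and 5.12 in the diaphragm LECs of mouse 3, 8.16 and 9.82 in mouse 15, and 2.70 and 2.38 in mouse 5. Nppa over Myh6 was 14.5 and 12.0 in mouse 3, 16.3 and 24.5 in mouse 15, and 12.5 and 6.79 in mouse 5. For Nppa over Nppb the values were 61.8 and 39.5, 28.4 and 21.8, and 63.4 and 68.1, and for Nppa over Myl2, the ventricular light chain, 19.8 and 19.3, 16.1 and 15.5, and 29.3 and 4.86, in the same order of mice. The source of these transcripts was not tested. The treatment results of the diaphragm are given below with and without them.
Without these 4 libraries the heart endothelial cells were above the diaphragm LECs in both muscle hormones. Nppa differed by 2.32 (SE 0.55, adjusted p = 0.00508) for heart LECs minus diaphragm LECs and by 1.77 (SE 0.55, adjusted p = 0.0154) for heart BECs minus diaphragm LECs, where the difference over all 12 diaphragm libraries was 0.66 and 0.11. Nppb differed by 1.39 (SE 0.38, adjusted p = 0.0176) and 1.58 (SE 0.38, adjusted p = 0.00130), where it was 0.50 and 0.69. The libraries were left out, after the values were seen, by a transcript that moves with Nppa, so these values are a description and not independent of the choice. Npr2 of heart BECs against diaphragm LECs no longer passed (0.42, adjusted p = 0.0878), and the other calls against diaphragm LECs kept their side of the threshold.

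In cardiomyocytes, the comparison of infused with ctrl mice asks how the hormone genes of the muscle answered a raised angiotensin II load. No member had an adjusted p-value under 0.05 in any of the 3 treatment comparisons of cardiomyocytes, where limma called 0.0892% of 15691 genes for angII against ctrl, 0% for angII+VEGFC against angII and 0.663% for angII+VEGFC against ctrl. At an unadjusted p under 0.05 the counts were 1, 1 and 4 of 7 members, and 1545, 378 and 2017 of all genes. The comparisons with ctrl share the same 4 ctrl libraries. The medians of the members were -0.03, -0.36 and -0.41, where those of all genes were 0.12, -0.03 and 0.11.

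Nppa varied widely within the groups. It was at 17705, 35640, 17198 and 10482 TPM in ctrl (mean 20256 ± 10771 SD, n = 4), at 21765, 7071, 66146, 31004 and 18854 in angII (28968 ± 22473, n = 5) and at 34538, 30844 and 16768 in angII+VEGFC. The lowest and the highest of the 12 libraries were both angII, and the groups overlapped throughout. The log2 difference from ctrl was 0.38 (SE 0.51, 95% interval -0.70 to 1.47, adjusted p = 0.873) for angII and 0.39 (SE 0.58, -0.85 to 1.64, adjusted p = 0.824) for angII+VEGFC. Without angII mouse 14 the first of these was -0.0017, and without angII+VEGFC mouse 2 the second was -0.15.
Nppb was at 365, 563, 144 and 147 TPM in ctrl, at 352, 346, 1153, 1093 and 413 in angII and at 1349, 1679 and 223 in angII+VEGFC. Both treated groups held libraries above every ctrl library and libraries within the ctrl range. The Nppb difference from ctrl was 1.22 (SE 0.60, adjusted p = 0.539) for angII and 1.55 (SE 0.69, adjusted p = 0.354) for angII+VEGFC. Over 15 alternative settings the Nppb difference for angII+VEGFC was 0.79 to 2.47, with limma adjusted p-values from 0.0190 to 0.754. Only 1 of the 15 passed. It left out angII+VEGFC mouse 8, whose 223 TPM was the low one, and gave 2.47 with an adjusted p of 0.0190.

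Corin was the member with the smallest p-value in cardiomyocytes. It was at 37.5, 46.9, 35.3 and 22.8 TPM in ctrl, at 19.5, 6.27, 33.2, 14.4 and 7.09 in angII and at 11.5, 7.06 and 9.82 in angII+VEGFC. All 3 angII+VEGFC libraries lay below all 4 ctrl libraries, as 4.78% of 15691 genes did, and a single angII library, at 33.2 TPM, lay inside the ctrl range. The log2 difference was -1.92 (SE 0.42, 95% interval -2.82 to -1.02, adjusted p = 0.0534) for angII+VEGFC and -1.20 (SE 0.37, -1.99 to -0.42, adjusted p = 0.229) for angII. Neither passed the threshold across all genes, and the first lay on its other side under several settings, with adjusted p-values from 0.0247 to 0.248.
Some marker lists shifted in the same libraries, and others overlapped between the groups. Summed atrial markers were at 7755 to 19652 TPM in ctrl, 3086 to 12394 in angII and 3543 to 7124 in angII+VEGFC. The angII range of this list overlapped that of ctrl. The fibroblast list was at 2413 to 3497, 3965 to 5595 and 3346 to 6502 TPM in the same order, and the leukocyte list at 402 to 538, 565 to 1229 and 614 to 1304. The general cardiomyocyte list overlapped, at 12335 to 19647, 9667 to 22098 and 8354 to 14426 TPM, as did the ventricular list, at 1568 to 3130, 1769 to 3689 and 1677 to 4355. The blood endothelial list overlapped too, at 2182 to 2896, 1921 to 3217 and 2382 to 3201 TPM. So did the mural (vessel wall) list, at 970 to 1745, 1029 to 1469 and 1180 to 1971 TPM. The part of all these lists in the Corin values was not tested.

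Over the 12 cardiomyocyte libraries the genes nearest to Nppa were Slc9a7 (r = 0.966), Esd (0.928) and Frmd5 (0.908), and those nearest to Nppb were Ankrd1 (0.948), Nmrk2 (0.920) and Pdlim7 (0.917), among 15690 genes. Ankrd1 encodes an ankyrin repeat protein of the sarcomere that is known to rise with load. For Corin, looked up after its values were seen, they were Kcnj5 (0.976), Dsg2 (0.974) and Kcnj3 (0.971), and Kcnj3 and Kcnj5 encode the subunits of the atrial potassium channel that acetylcholine opens. Nppa and the atrial marker Myl7 did not keep 1 ratio. The ratio of Nppa to Myl7 was 1.51 to 3.15 in ctrl, 3.73 to 11.9 in angII and 3.72 to 18.4 in angII+VEGFC, given without a test, while Myl7 itself was at 5365 to 13200, 1686 to 5550 and 1673 to 4511 TPM.

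Among the receptors of the cardiomyocyte libraries none passed the treatment test, and Npr3 had the smallest p-value. Npr3 was at 8.27, 10.9, 2.91 and 4.96 TPM in ctrl, at 3.53, 2.31, 5.09, 3.86 and 3.23 in angII and at 1.88, 0.796 and 3.04 in angII+VEGFC. The lowest ctrl library lay within both treated ranges, so the groups overlapped. The difference from ctrl was -1.51 (SE 0.35, 95% interval -2.25 to -0.77, adjusted p = 0.0659) for angII+VEGFC and -0.56 (SE 0.30, adjusted p = 0.571) for angII, and angII+VEGFC minus angII was -0.94 (adjusted p = 0.9996). Npr3 had adjusted p-values from 0.0176 to 0.284 for angII+VEGFC against ctrl over the settings tried.
Npr1 was at 9.22, 5.95, 6.97 and 7.96 TPM in ctrl, at 5.95, 5.59, 4.64, 3.13 and 7.74 in angII and at 6.51, 4.30 and 2.42 in angII+VEGFC, with a difference of -0.65 (SE 0.30, adjusted p = 0.370) for the last against ctrl. Nppc (-0.41, adjusted p = 0.631) and Npr2 (-0.20, adjusted p = 0.824) had the smallest differences of that comparison beside Nppa.

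**Figure D4:**
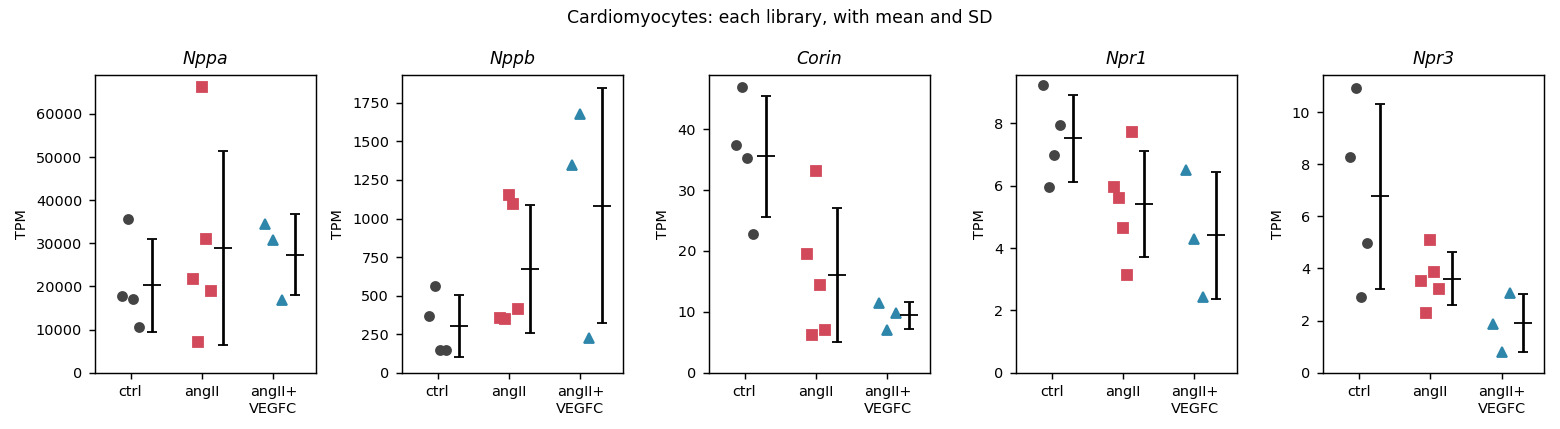
TPM of Nppa, Nppb, Corin, Npr1 and Npr3 in the cardiomyocyte libraries by treatment, 1 point per mouse with the mean and SD of the group. The Corin libraries of angII+VEGFC, at 7.06 to 11.5 TPM, are below all ctrl libraries, while Nppa and Nppb overlap between the groups.

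In heart BECs the hormone genes of the heart muscle were listed at low levels, above the ctrl range in many libraries of infused mice, and did not pass the test. limma called 0% of 21281 genes in each of the 3 comparisons, and 1, 2 and 2 members had an unadjusted p under 0.05 for angII against ctrl, angII+VEGFC against angII and angII+VEGFC against ctrl, beside 1149, 551 and 1172 of all genes. Nppa was at 1.33, 11.4, 9.50 and 5.95 TPM in ctrl, at 18.3, 12.2, 59.1, 14.5 and 30.6 in angII and at 52.5, 99.6 and 7.60 in angII+VEGFC. Every angII library lay above every ctrl library, as 0.982% of all genes did, and angII+VEGFC mouse 8 lay within the ctrl range. The Nppa difference from ctrl was 1.66 (SE 0.70, adjusted p = 0.913) for angII and 2.62 (SE 0.81, adjusted p = 0.814) for angII+VEGFC. Within batch 1 and batch 2 these were 2.33 and 1.25 for angII, and 4.35 and 1.21 for angII+VEGFC. The 4.35 rests on 1 angII+VEGFC library, that of mouse 6 at 99.6 TPM.
Nppb was at 0.889, 2.20, 4.24 and 0.323 TPM in ctrl, at 1.499, 1.10, 2.14, 4.27 and 0.812 in angII and at 5.81, 6.71 and 6.197 in angII+VEGFC. The angII+VEGFC libraries lay above all others, a pattern of 2.55% of the genes against ctrl and of 1.41% against angII. The Nppb difference was 1.51 (SE 0.50, adjusted p = 0.851) against ctrl, with 1.29 in batch 1 and 1.77 in batch 2. Batch 1 held only 1 angII+VEGFC library. The summed cardiomyocyte markers were at 131 to 280 TPM in ctrl, 133 to 190 in angII and 166 to 186 in angII+VEGFC. The atrial sum was at 22.6 to 52.1, 28.2 to 53.2 and 23.3 to 62.9 in the same order. The part of these transcripts in the Nppa and Nppb values was not tested. Nppc, at 0.923 to 3.95 TPM in angII+VEGFC and 3.14 to 11.1 in angII, differed by -1.48 (SE 0.47, adjusted p = 0.999955) between them. The members had medians of 0.23, -0.07 and 0.16 in the 3 comparisons, and all genes -0.06, 0.03 and -0.01.

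In heart LECs the Nppb values of infused and ctrl mice did not overlap. Nppb was listed at 0 in all 4 ctrl libraries, at 3.61, 1.37, 1.28, 13.3 and 11.7 TPM in angII and at 3.91, 11.0 and 3.27 TPM in angII+VEGFC. All 8 libraries of infused mice thus lay above all ctrl libraries, a pattern of 2.13% of 26803 genes for angII and 1.82% for angII+VEGFC. Nppb met the filter on low values through the infused libraries alone, so this pattern is not independent of that filter. No fold change is given against a group listed at 0. The fitted Nppb difference in log2(TPM + 1) was 2.54 (SE 0.64, adjusted p = 0.204) for angII and 2.49 (SE 0.74, adjusted p = 0.915) for angII+VEGFC, and it depends on the pseudocount, being 5.51 for angII with 0.1 TPM in place of 1. Within batch 1 and batch 2 it was 1.55 and 3.75 for angII and 3.58 and 2.20 for angII+VEGFC. The 3.58 rests on 1 angII+VEGFC library.
limma called 0.0261% of the genes in heart LECs for angII against ctrl and 0% in the other comparisons, and 0 of 7 members in each. Unadjusted p-values under 0.05 were reached by 1, 0 and 1 members and by 2911, 2906 and 1325 of all genes.

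Nppa of heart LECs was at 37.7, 6.11, 20.3 and 21.8 TPM in ctrl, at 13.8, 27.6, 65.8, 171 and 166 in angII and at 4.12, 49.4 and 14.2 in angII+VEGFC. The 3 highest libraries were angII mice 14, 15 and 18, which also had the highest summed cardiomyocyte markers, 657, 648 and 1033 TPM. The other 9 heart LEC libraries had marker sums of 155 to 340 TPM. The Nppa difference of angII from ctrl was 1.60 (SE 0.76, adjusted p = 0.463), with 0.0855 in batch 1 and 3.74 in batch 2. The part of these markers in the Nppa and Nppb values was not tested, and in the ctrl libraries Nppb was listed at 0 with marker sums of 157 to 260 TPM. Blood endothelial markers moved with the same group, at 1935 to 3285 TPM in ctrl, 3168 to 8005 in angII and 2314 to 2706 in angII+VEGFC, and genes listed at 1 TPM or more numbered 16131 to 24086, 19957 to 25896 and 16756 to 18884. Their part was not tested either.
Nppc was at 38.4, 17.8, 18.1 and 21.5 TPM in ctrl, at 16.7, 17.03, 42.7, 37.5 and 36.6 in angII and at 6.47, 25.2 and 25.1 in angII+VEGFC, with the groups overlapping. Corin overlapped likewise, at 8.04 to 16.8, 5.08 to 13.4 and 4.80 to 10.5 TPM. The members had medians of 0.02, -0.15 and -0.19 in the 3 comparisons, where all genes had 0.23, -0.37 and -0.13.

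In diaphragm LECs, 0 of 7 members and 0% of 23839 genes were called by limma in each comparison, with 3, 3 and 1 members and 3651, 2094 and 314 genes at an unadjusted p under 0.05. The angII libraries had more genes listed at 1 TPM or more, 20062 to 23691, than the ctrl libraries with 12924 to 18116 and the angII+VEGFC libraries with 14963 to 18373, and the part of this difference in the values below was not tested. Nppa was at 0, 295, 2.68 and 10.9 TPM in ctrl, at 893, 606, 8.19, 406 and 13.6 in angII and at 2.12, 13.7 and 0.243 in angII+VEGFC. The libraries above 100 TPM were the 4 with Myh6 above 10 TPM, 3 of them angII. The Nppa difference was 3.61 (SE 1.33, adjusted p = 0.299) for angII against ctrl and -6.28 (SE 1.54, adjusted p = 0.567) for angII+VEGFC against angII, and without the 4 libraries 1.52 (SE 1.03, adjusted p = 0.748) and -0.48 (SE 1.30, adjusted p = 0.961). By batch the first was 6.48 in batch 1 and 0.37 in batch 2.
Nppb was listed at 0 in 3 ctrl libraries and at 4.33 in the other, at 22.6, 17.1, 0, 18.6 and 1.25 TPM in angII and at 0, 0.761 and 0 in angII+VEGFC. Its difference was 2.26 (SE 0.75, adjusted p = 0.297) and -3.29 (SE 0.86, adjusted p = 0.567) in the same comparisons, and without the 4 libraries Nppb was left out by the filter on low values.

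Corin of diaphragm LECs was at 0.949, 0.307, 0.0809 and 0.260 TPM in ctrl, at 2.47, 1.84, 1.45, 2.21 and 2.89 in angII and at 1.42, 0.647 and 1.28 in angII+VEGFC. All angII libraries lay above all ctrl libraries, as 4.78% of the genes did, and above all angII+VEGFC libraries, as 7.35% of the genes did. Libraries at 1 TPM or more were 0 of 4 in ctrl, 5 of 5 in angII and 2 of 3 in angII+VEGFC. Corin thus met the filter on low values only with the angII libraries, near the floor, and its lack of overlap is not independent of that filter. The Corin difference of angII from ctrl was 1.22 (SE 0.42, adjusted p = 0.297), with 0.99 in batch 1, 1.46 in batch 2 and 1.16 (SE 0.58, adjusted p = 0.706) without the 4 libraries.
Npr2 was at 60.3, 35.99, 41.5 and 38.5 TPM in ctrl, at 36.04, 35.3, 53.1, 61.8 and 66.2 in angII and at 74.7, 76.0 and 63.2 in angII+VEGFC. Npr1 was at 14.5 to 22.3 TPM in ctrl, 13.2 to 28.7 in angII and 22.4 to 27.9 in angII+VEGFC. For both, every angII+VEGFC library lay above every ctrl library (2.54% of the genes), and for Nppc, at 29.8 to 37.3 against 37.9 to 63.5 TPM, below (1.8% of the genes). The Npr2 difference of angII+VEGFC from ctrl was 0.78 (SE 0.27, adjusted p = 0.999973). The median of the members was 0.18, -0.51 and -0.47 in the 3 comparisons, where that of all genes was 0.28, -0.21 and 0.05.

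**Figure D5:**
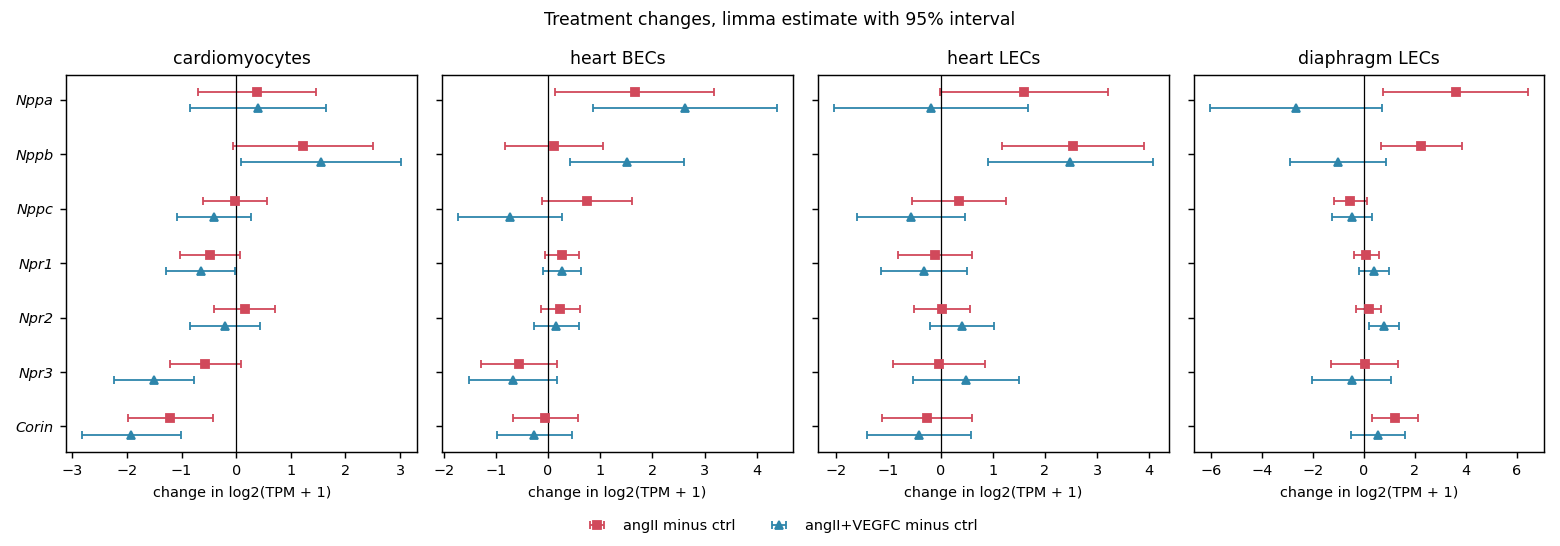
Differences of angII and of angII+VEGFC from ctrl in log2(TPM + 1) for the 7 genes, 1 panel per population, with the 95% intervals of the limma fits. No difference had an adjusted p-value under 0.05, and the widest intervals belong to Nppa in diaphragm LECs.

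Whether the endothelial populations answered differently was tested by an interaction of population and treatment over the 36 endothelial libraries. limma called 0 of 7 members in each of the 6 comparisons, 0.00691% of 28938 genes for heart LECs against diaphragm LECs in angII minus ctrl, and 0% in the other 5. Unadjusted p-values under 0.05 numbered 1, 2 and 1 members for angII minus ctrl (heart LECs against heart BECs, diaphragm LECs against heart BECs, heart LECs against diaphragm LECs) and 0, 3 and 1 for angII+VEGFC minus angII. Over all genes these counts were 2161, 3405 and 2894, and 1967, 2097 and 1459. For angII minus ctrl, Corin of heart LECs against diaphragm LECs gave -1.42 (SE 0.47, adjusted p = 0.335). Nppb of heart LECs against heart BECs gave 2.32 (SE 0.97, adjusted p = 0.611). Both rest on ctrl values near the floor. Corin reached 1 TPM in 0 of 4 ctrl diaphragm LEC libraries, and Nppb was listed at 0 in all 4 ctrl heart LEC libraries. In angII+VEGFC minus angII, Nppb of diaphragm LECs against heart BECs gave -3.79 (SE 1.05, adjusted p = 0.669), and -1.71 without the 4 diaphragm LEC libraries.

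The wider pathway was read from 39 further genes, all of which were found in the matrix (Irag1 under its older symbol Mrvi1). Between 33 and 37 of them could be tested within a population, and limma called 0 in any treatment comparison. Unadjusted p-values under 0.05 were reached by 7, 1 and 10 of them in cardiomyocytes for angII against ctrl, angII+VEGFC against angII and angII+VEGFC against ctrl, by 8, 3 and 5 for heart BECs, by 5, 4 and 1 for heart LECs and by 6, 3 and 2 for diaphragm LECs. Between populations, 37 were tested. Cardiomyocytes were higher in 13 and lower in 9 of them against heart BECs, 13 and 17 against heart LECs, and 17 and 13 against diaphragm LECs, which is 59.5%, 81.1% and 81.1% of the list beside 48.5%, 66.4% and 52.4% of all genes. The split depended on the scaling, and with quantile normalization it was 21 higher and 5 lower, 20 and 6, and 21 and 9. Heart BECs were higher in 7 and lower in 11 against heart LECs and 15 and 9 against diaphragm LECs, and heart LECs were higher in 9 and lower in 5 against diaphragm LECs, which is 48.6%, 64.9% and 37.8% beside 24%, 20.4% and 7.44% of all genes. With quantile normalization these were 10 and 10, 16 and 9, and 6 and 5. The lists were chosen with results known, and nothing is read from these shares about the pathway.

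Of the 8 transcription factors known to act on the Nppa and Nppb promoters, 5 were higher and 1 lower in cardiomyocytes than in heart BECs, where 48.5% of all genes passed, and the split was the same with quantile normalization. Nkx2-5, the cardiac homeobox factor, was at 41.8 ± 19.97 TPM in cardiomyocytes (SD, n = 12) and 4.70 log2 units above heart BECs (adjusted p = 1.58e-15). Mef2c, the other of the 2 most abundant factors there at 60.0 ± 10.0 TPM, was lower in cardiomyocytes than in heart BECs (-1.61, adjusted p = 4.08e-17), where it was at 184 ± 23.1 TPM. Gata4 was at a mean of 37.6 TPM in heart LECs and 3.62 above diaphragm LECs (adjusted p = 8.52e-15).
The 5 genes of cardiac stress were 4 higher and 1 lower in cardiomyocytes against each endothelial population. Of all genes, 48.5%, 66.4% and 52.4% passed against heart BECs, heart LECs and diaphragm LECs. With quantile normalization the 5 were 4 higher and 0 lower against heart BECs. Ankrd1 was at 836 ± 553 TPM, and Acta1, the skeletal actin of stressed heart muscle, at 633 ± 958 TPM. Rcan1, an inhibitor of calcineurin, was the 1 lower, with mean levels of 1604 TPM in diaphragm LECs, 744 in heart LECs and 368 in heart BECs.

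Among the enzymes that make and use cyclic GMP, the soluble guanylyl cyclase, which answers nitric oxide, was highest in the diaphragm. Its subunits Gucy1a1 and Gucy1b1 were at 95.2 ± 20.6 and 77.5 ± 21.5 TPM in diaphragm LECs (SD, n = 12), at 40.9 ± 14.0 and 34.7 ± 9.52 in heart LECs, at 22.4 ± 7.32 and 13.0 ± 4.48 in heart BECs and at 25.9 ± 6.82 and 13.2 ± 2.74 in cardiomyocytes. Both were lower in heart LECs than in diaphragm LECs (-1.28, adjusted p = 7.76e-08, and -1.16, adjusted p = 2.61e-07), a pair of populations in which Npr1 and Npr2 did not pass.
Of 16 effectors and phosphodiesterases, 4 were higher and 4 lower in cardiomyocytes than in heart BECs, and 6 were higher and 0 lower in heart LECs than in diaphragm LECs by limma, where 48.5% and 7.44% of all genes passed. With quantile normalization the counts were 8 and 3, and 3 and 0. Pln, the calcium pump brake phospholamban that cyclic GMP dependent kinase can phosphorylate, led in cardiomyocytes at 411 ± 119 TPM. Pde2a, a phosphodiesterase that cyclic GMP stimulates, led in heart BECs at 184 ± 45.8 TPM, and was at 85.5 ± 21.7 and 89.7 ± 31.7 TPM in heart and diaphragm LECs.

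Of the 5 tested genes for peptide processing and clearance, 3 were lower and 0 higher in cardiomyocytes than in heart BECs, where 48.5% of all genes passed. With quantile normalization 1 was lower and 2 higher. Ide, the insulin-degrading enzyme, which also cuts natriuretic peptides, was the most abundant of them in every population, at 22.0 ± 10.1 TPM in cardiomyocytes, 34.4 ± 9.83 in heart BECs and, higher still by mean, 46.1 ± 17.9 in heart LECs and 63.4 ± 14.0 in diaphragm LECs. Pcsk6, a protease known to activate corin, was at 25.8 ± 11.7 TPM in heart LECs and 40.2 ± 18.1 in diaphragm LECs, and 2.57 log2 units lower in heart BECs than in heart LECs (difference -2.57, adjusted p = 6.85e-09).

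The remaining members had nearest genes of other kinds over the 48 libraries. Those of Npr1 were Nid2 (r = 0.942), Tie1 (0.941) and Kdr (0.941), where Tie1 and Kdr are receptor kinases of endothelial cells. Those of Npr2 were Tlnrd1 (0.927), Rasip1 (0.911) and Kbtbd2 (0.907), and Npr1 and Npr2 correlated with each other at 0.873. Npr3 was nearest to Ablim1 (0.915), H2-Q6 (0.882) and Cd93 (0.881), Nppc to Tnfaip8l3 (0.933), Pard6g (0.928) and Slc10a6 (0.928), and Corin to Rragd (0.859), Clu (0.838) and Kcnj5 (0.810). Nppb was nearest to Ankrd1 (0.962), C130080G10Rik (0.957) and Nppa (0.951). The correlations follow the 4 populations as much as the libraries within them, and no p-value is given.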

How the data were processed

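RNA was sequenced from 48 libraries of sorted heart LECs, heart BECs, diaphragm LECs and pelleted cardiomyocytes. The authors prepared the libraries from low-input cDNA, aligned the reads to GRCm38 with STAR 2.5.3a, quantified Ensembl 95 genes with Salmon 0.12.0 in alignment mode and deposited 1 matrix in TPM. TPM is relative and keeps no counts, so sequencing depth is unknown, counting error cannot be stated and the count tests of the authors (DESeq2) were not used. Groups, mice, ages and batches came from the labels, whose ages in months differ from the weeks in the methods. Of the 54752 genes, 54723 matched a symbol. No 2 libraries were identical.

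Values were transformed to log2(TPM + 1) and fitted with limma 3.58.1 (R 4.3.3) with a trend, over genes that reached 1 TPM in at least 3 libraries, with Benjamini-Hochberg adjustment over all genes tested (15691 for cardiomyocytes, 21281 for heart BECs, 26803 for heart LECs, 23839 for diaphragm LECs) and a threshold of 0.05. Treatment was fitted within each population with age and, for endothelial cells, batch as covariates. Populations were compared in all 48 libraries with age as a covariate, and the interaction in the 36 endothelial libraries with age and batch. The same mouse gave several populations by the labels, and libraries of 1 mouse had residuals with a mean correlation of 0.0386 over 69 pairs (-0.210 to 0.265), against -0.0108 over 231 pairs of different mice, so a fit with the mouse as a block was the alternative. The spread is that between mice.

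The members, the pathway and marker lists and the tests were chosen with earlier results of these data known. Named genes were the members, the 2 pathway genes of each list with the highest mean TPM per population, and the 3 genes nearest to each member by correlation. Alternative settings were no filter on low values, a pseudocount of 0.1, no covariates, the first residual component or the number of genes at 1 TPM as a covariate, quantile normalization, leaving out mitochondrially encoded genes, fitting the 2 groups compared, ctrl libraries alone and the block. In turn, each library was left out of the treatment fits, and all libraries of each mouse out of the population and interaction fits. The code was tested on simulated data. Sequences came from GENCODE M21 and RefSeq. Figures were drawn with matplotlib 3.10.9 in Python 3.11.15.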

Additional observations from a re-analysis of the deposited data

Results flagged for a closer look

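Of 56 groups of 4 or 5 libraries of a member, 2 held a library far from the others by Dixon's criterion, which chance gives in about 1 of 20 groups. Nppb in the ctrl diaphragm LECs was at 4.325 TPM in mouse 5, 1 of the 4 libraries with Myh6 above 10 TPM, and listed at 0 in the other 3. Corin in the angII heart BECs was at 0.8575 TPM in mouse 18 and at 2.007 to 2.458 TPM in the other 4.

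In some members every library of 1 population lay on 1 side of the ctrl mean and every library of another population on the opposite side. These differences between populations were not tested, because cardiomyocytes were sequenced as a set of their own. The pattern was looked for in the members alone, and the share of all genes that have it was not counted. How common it is among groups this small is therefore unknown, and nothing is concluded from it. Npr1 in angII+VEGFC differed from ctrl by -0.7139 in cardiomyocytes, by 0.252 in heart BECs and by 0.4341 in diaphragm LECs, as differences of group means in log2(TPM + 1). Corin in angII differed from ctrl by -1.294 in cardiomyocytes and by 1.198 in diaphragm LECs, and in angII+VEGFC by -1.787 and 0.6137. The Corin values of diaphragm LECs lay near the floor, at 0.0809 to 2.89 TPM. They met the filter on low values only with the angII libraries. The atrial marker sum of the same cardiomyocyte groups is given with the Corin values, and its part was not tested.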

How the results depend on the processing

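Depth is unknown, and the 3 to 5 mice per group limit the treatment comparisons. Of the single-gene results, 1260 recomputed values kept their direction and side of the threshold, 16 passed it, 13 lost it and 2 reversed. Both reversals were Nppa in cardiomyocytes, whose difference from ctrl was -0.0017 to 0.74 for angII with 1 library left out in turn (lowest without mouse 14) and -0.15 to 0.77 for angII+VEGFC (lowest without mouse 2). Of the counts of members called, 430 stayed within 1.5 times and 8 moved. For angII+VEGFC against ctrl in cardiomyocytes, 0 members became 2 (Corin and Npr3) with the first residual component, with the number of genes at 1 TPM as a covariate, with quantile normalization and without mitochondrially encoded genes. It became 1 (Corin) with only the 2 groups compared, and 0 to 3 with 1 library left out, where 3 came without mouse 8 (Corin, adjusted p = 0.0354, Npr3, adjusted p = 0.0192, and Nppb). Heart BECs against heart LECs went from 5 to 3 in ctrl libraries alone (Npr1 and Npr2 lost). Heart LECs against diaphragm LECs went from 2 to 4 without the 4 diaphragm LEC libraries with Myh6 above 10 TPM (Nppa and Nppb added). That setting was chosen after seeing the data. With all libraries of 1 mouse left out in turn, heart LECs against diaphragm LECs gave 2 to 3 members (3 without mouse 1 or mouse 4, Nppc added). With the mouse as a block heart LECs against diaphragm LECs gave 3 members (Nppc added), and the other counts, the interaction included at 0, did not move.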
